A study of Ovis aries with 12 samples.

Results

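The mitochondrial genome of the sheep encodes 7 subunits of respiratory complex I, ND1, ND2, ND3, ND4, ND4L, ND5 and ND6. They were taken from the deposited count table as the rows with exactly these names, 7 of 27054 genes. Right ventricular free wall was sequenced as messenger RNA in 12 libraries, 4 from fetal lambs, 4 from control lambs 4 to 6 weeks old and 4 from shunt lambs of that same age range. The shunt lambs had been operated on as fetuses to place an aortopulmonary graft, which gave them a left-to-right shunt and loaded the right ventricle with pressure, and strain, sex and gestational age are not given in the labels. The labels do not say that each library is a different animal, so p-values reflect only how far these libraries spread, part of which may be technical. In whole tissue, fewer cells of a type and less RNA per cell cannot be told apart.

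Complex I, the NADH dehydrogenase of the inner mitochondrial membrane, passes electrons from NADH to ubiquinone and pumps protons, and it is the entry point of most electrons in the working heart muscle cell. All mitochondrially encoded subunits lie in its membrane arm, while the peripheral arm that binds NADH is made of nuclear-encoded proteins. ND2, ND4 and ND5 are the antiporter-like subunits of the arm, ND1 forms much of the ubiquinone channel, and ND3, ND4L and ND6 are small subunits at the joint between them. In mammals the genes are transcribed as long polycistronic precursors that are cut apart at transfer RNAs. ND6 alone among the protein genes is read from the light strand, and ND4L and ND4 stay together on 1 messenger RNA. In the RefSeq gene table for sheep (assembly ARS-UI_Ramb_v3.0, used for names and order only) all 7 matched by symbol. ND4L and ND4 overlap there, as do ND5 and ND6, so reads from the shared bases can be counted for either gene. Whether counting used strand is not stated, and without strand the reads of ND6 and ND5 in their overlap could not be told apart.

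The 7 genes together took 8.40, 7.81, 12.6 and 10.3% of all counts in fetal 1 to fetal 4, 15.4, 13.8, 16.0 and 13.6% in control 1 to control 4 and 25.7, 27.8, 15.7 and 13.9% in shunt 1 to shunt 4. Shunt 1 and shunt 2 stood far above the rest, and shunt 3 and shunt 4 lay within the range of the controls. The group means were 9.80% ± 2.18 in fetal, 14.7% ± 1.18 in control and 20.8% ± 6.96 in the shunt libraries (SD, n = 4). The control values did not overlap the fetal ones. For shunt 2 the Wilson 95% interval was 27.76 to 27.80%, and such intervals cover counting error only.

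**Figure D1:**
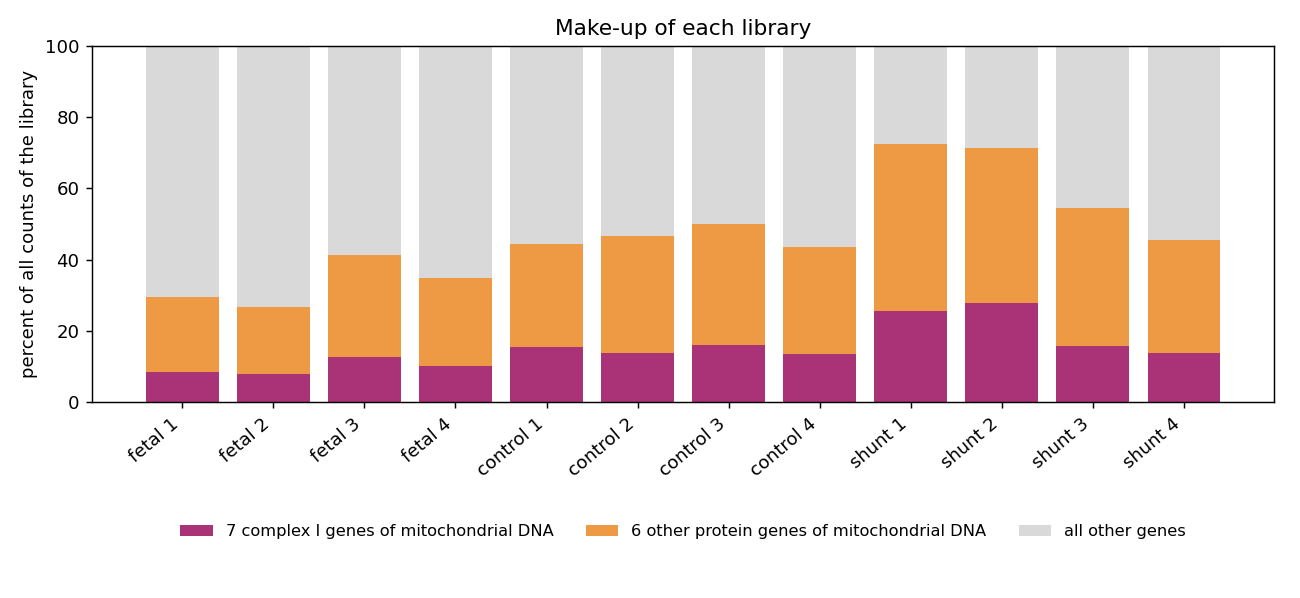
Make-up of each library: each bar is 1 library, and its height is 100% of the counts, divided into the 7 complex I genes of mitochondrial DNA, the 6 other protein genes of mitochondrial DNA and all other genes. The complex I genes take 25.7% and 27.8% of shunt 1 and shunt 2 and at most 16.0% of any other library.

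Total counts per library ranged from 19111348 to 44946875, and the 13 protein genes of mitochondrial DNA took 26.7 to 72.6% of them. Shunt 1 and shunt 2 were at 72.6% and 71.4%, which left 7152139 and 7140136 counts for all other genes, against 10702663 to 24976602 elsewhere. They also had counts on 14785 and 13838 genes, against 14941 to 15766. Their part in the results was not tested, and the shunt results of the 7 genes are given with and without them. All 4 tested cardiomyocyte markers, MYL2, TPM1, MYOZ2 and MB, were high in every library. Their summed level was 20388 to 30425 CPM in fetal, 26166 to 32999 CPM in control and 19915 to 36167 CPM in the shunt libraries. MB was at 3883 to 5939 CPM in fetal libraries, below all controls at 8853 to 10171 CPM. In shunt 1 to shunt 4 it was at 5347, 6852, 6086 and 10471 CPM. TPM1 was at 3756 and 4821 CPM in shunt 1 and shunt 2, below all controls, and above them in shunt 3 and shunt 4. In shunt 1 MYOZ2 was below all controls and MYL2 among them, and in shunt 2 both were above. No other cardiomyocyte marker of the 16 listed was named in the table. For other cell types the summed level of the tested markers over all libraries was 242 to 527 CPM for 1 of 7 fibroblast genes (DCN), 69.7 to 166 CPM for 3 of 6 endothelial genes, 5.51 to 26.3 CPM for 2 of 5 myeloid genes, at most 9.88 CPM for 2 of 4 adipocyte genes, at most 34.7 CPM for 2 of 5 pericyte and smooth muscle genes and at most 2.17 CPM for 2 of 3 lymphocyte genes. Of the endothelial genes, KDR and AQP1 summed to 107 to 118 CPM in fetal, 61.4 to 84.8 CPM in control and 52.5 to 134 CPM in the shunt libraries. The fetal sums lay above all controls, and the shunt sums overlapped both groups. FABP4, also a gene of fat cells, was at 0.0471 to 0.923 CPM in fetal, 0.469 to 8.28 CPM in control and 3.30 to 113 CPM in the shunt libraries. NPPA, the 1 named of 4 atrial genes and also a gene of stressed ventricle, was at 3589 CPM in shunt 3 and 0.689 to 373 CPM elsewhere. The part of all these markers in the results of the 7 genes was not tested.

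Levels are given as CPM, counts relative to a library size that TMM scaling sets by the bulk of genes, so that the CPM values of all libraries need not have the same sum. Counts grow with the length of a gene and are not divided by length here, so levels are compared between libraries and not between genes. Every member had at least 6995 counts in each library, and the counting error of a single value is thus at most 1.20%.

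Among the antiporter-like subunits, ND2 (ENSOARG00000000010) was at 13531, 13866, 29549 and 18732 CPM in fetal 1 to fetal 4, 40528, 36001, 48816 and 35942 CPM in control 1 to control 4 and 137233, 213657, 58670.2 and 42977 CPM in shunt 1 to shunt 4. All controls were above all fetal libraries, shunt 1 and shunt 2 were far above the controls, and shunt 4 lay within the control range. ND4 (ENSOARG00000000028) was at 20212, 16985, 36491 and 25618 CPM in fetal 1 to fetal 4, 45412, 46241, 58355 and 41024 CPM in control 1 to control 4 and 154039, 184763, 75099 and 45741 CPM in shunt 1 to shunt 4. Its order was the same, with no overlap of control and fetal libraries and with shunt 4 among the controls. ND5 (ENSOARG00000000032) was at 5305, 4047, 12321 and 9117 CPM in fetal 1 to fetal 4, 15573, 13706, 13871 and 12802 CPM in control 1 to control 4 and 50448, 45112, 20906 and 13459.8 CPM in shunt 1 to shunt 4. Here too the lowest control lay above the highest fetal value, by a small margin, and shunt 4 was within the control range.

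ND1 (ENSOARG00000000006), the subunit of the ubiquinone channel, was at 11015, 9934, 24317 and 16029 CPM in fetal 1 to fetal 4, 25707, 20483, 32314 and 20861 CPM in control 1 to control 4 and 71546, 90218, 33013 and 25227 CPM in shunt 1 to shunt 4. Fetal 3 lay among the controls and shunt 4 too, so neighbouring groups overlapped. Of the small subunits, ND3 (ENSOARG00000000025) was at 2984, 2906, 6235 and 4036 CPM in fetal 1 to fetal 4, 8816, 8379, 11610.2 and 8669.6 CPM in control 1 to control 4 and 36007, 69379, 13465 and 9134 CPM in shunt 1 to shunt 4. Shunt 2 had the highest ND3 level of all libraries, and all controls were above all fetal libraries.

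ND4L (ENSOARG00000000027) was at 746, 518, 1522 and 1333 CPM in fetal 1 to fetal 4, 2079.7, 2121, 2005 and 1795 CPM in control 1 to control 4 and 6213, 5689.9, 2693 and 1583 CPM in shunt 1 to shunt 4. Shunt 4 lay below every control and only just above the highest fetal library. ND6 (ENSOARG00000000033), the light-strand gene, had the lowest counts of the 7 and was at 259, 227, 554 and 301 CPM in fetal 1 to fetal 4, 497, 458, 490.2 and 441 CPM in control 1 to control 4 and 1636, 1385, 659 and 521 CPM in shunt 1 to shunt 4. Fetal 3 was above every control and above shunt 4, and it was the 1 value that kept the fetal group from lying wholly below the others.

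For all 7 genes the group mean was lowest in fetal, intermediate in control and highest in the shunt libraries. Among controls the coefficient of variation was 5.63% for ND6 and up to 22.2% for ND1. In the fetal group it was 34.5 to 48.9%, and in the shunt group 51.8% for ND6 to 86.2% for ND3.

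**Figure D2:**
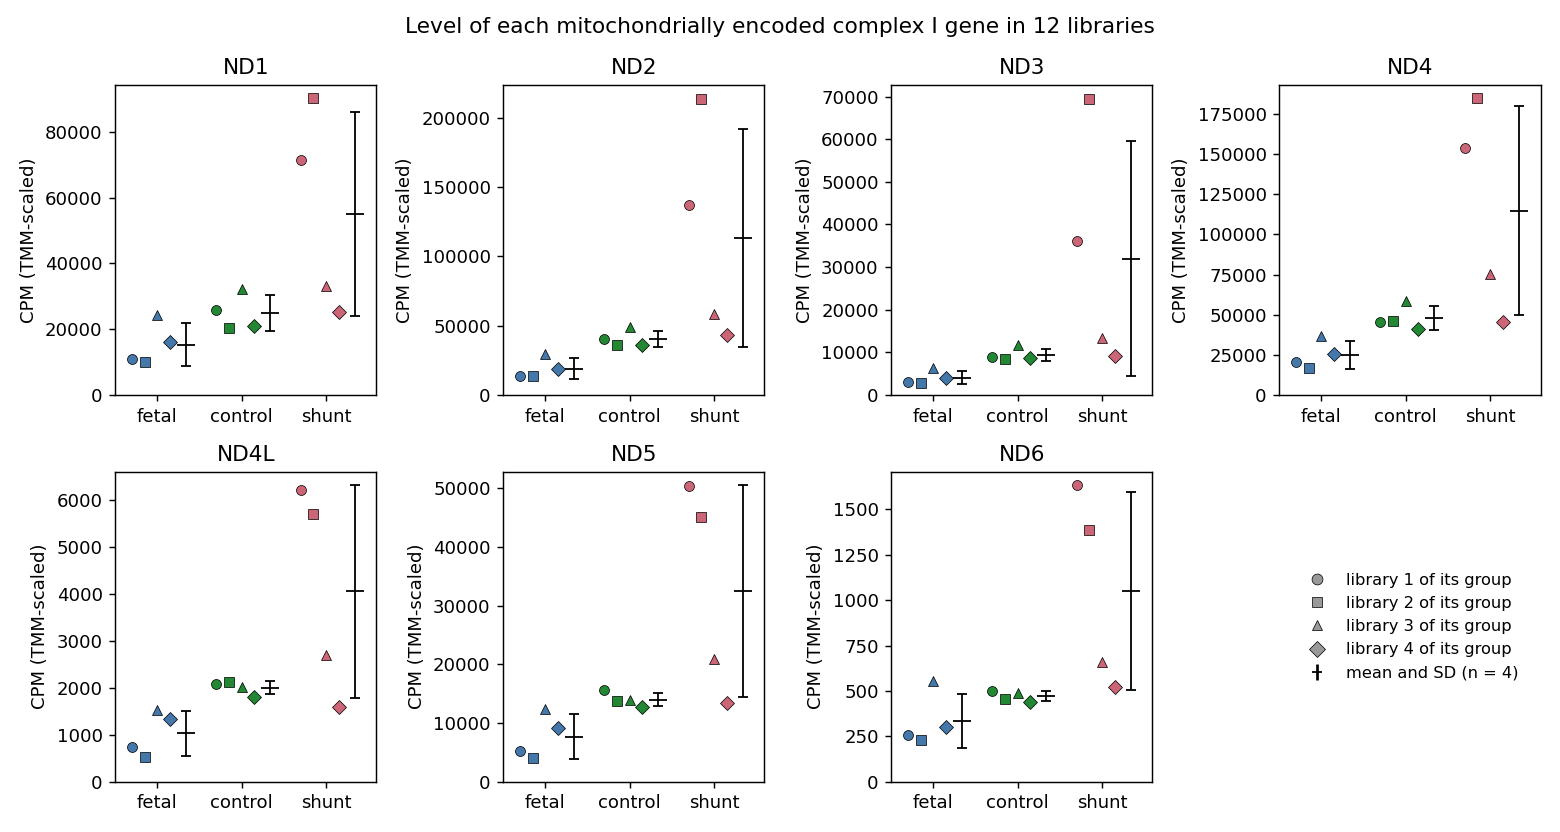
Level of each mitochondrially encoded complex I gene: each panel is 1 gene, the y axis is TMM-scaled CPM on a linear scale from 0, each point is 1 library of the fetal, control or shunt group, and the black mark is the mean with its SD (n = 4). Shunt 1 and shunt 2 lie above every other library in all 7 panels, while shunt 4 lies within or, for ND4L, below the control range except for ND6.

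From the fetal to the control ventricle none of the 7 genes passed the test, although the mean of each was higher in controls. The log2 changes ran from 0.49 for ND6 to 1.21 for ND3, with a median of 0.94 against 0.00 over the 13065 genes tested. For the 6 other protein genes of mitochondrial DNA the median was 0.77, and all 6 changes were positive. edgeR's quasi-likelihood test with Benjamini-Hochberg adjustment over all genes called 0 of 7 at an adjusted p under 0.05, where 5.17% of all genes were called, 2.66% as higher in controls. At an unadjusted p under 0.05 it counted 4 of 7, ND2, ND3, ND4 and ND4L, against 18.4% of all genes, and the Wald test of DESeq2 also called 0, with 9.55% of all genes called.

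ND3 averaged 9369 ± 1505 CPM in control against 4040.1 ± 1551 CPM in fetal libraries (SD, n = 4), log2 1.21, SE 0.498, edgeR adjusted p = 0.2. ND2 averaged 40322 ± 6057 against 18919 ± 7475 CPM (log2 1.09, SE 0.432, edgeR adjusted p = 0.178). ND4L and ND4 stood at 0.96 and 0.94 on the log2 scale (edgeR adjusted p = 0.212 and 0.197). The other three, ND5, ND1 and ND6, stood at 0.86, 0.70 and 0.49 (edgeR adjusted p = 0.278, 0.377 and 0.501).

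The 4 control CPM values lay above the 4 fetal ones for 5 of the 7 genes, all but ND1 and ND6, as they did for 9.18% of all genes. As a percent of all counts, without TMM scaling, they did so for 4 of 7, ND2, ND3, ND4 and ND4L, against 2.40% of all genes. The 2 shunt libraries with the highest mitochondrial share enter the common estimate of spread in this fit. Without shunt 1 and shunt 2, ND2, ND3 and ND4 rose at nearly the same size, by log2 1.10, 1.22 and 0.95 (edgeR adjusted p = 0.0107, 0.00617 and 0.0216), where 12.2% of all genes were called. Over the 20 alternatives tried, the adjusted p ran from 0.0103 to 0.391 for ND2, from 0.00528 to 0.409 for ND3 and from 0.0158 to 0.424 for ND4.

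Where shunt ventricles were set against age-matched controls, all 7 genes had a higher mean in the shunt group, and none passed the test. The log2 changes ran from 1.02 for ND4L to 1.77 for ND3, with a median of 1.22 against 0.01 over all genes. For the 6 other protein genes of mitochondrial DNA the median was 1.19, and all 6 changes were positive. edgeR called 0 of 7, where 4.00% of all genes were called and 2.30% called higher, with adjusted p from 0.057 for ND3 to 0.121 for ND4L. All 7 had an unadjusted p under 0.05, against 28.0% of all genes, and the Wald test of DESeq2 called 6, all but ND4L, where it called 15.2% of all genes.

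ND3 averaged 31996 ± 27566 CPM over the shunt libraries and 9369 ± 1505 CPM over the controls (SD, n = 4), log2 1.77, SE 0.506, edgeR adjusted p = 0.057. ND2 averaged 113134 ± 78685 against 40322 ± 6057 CPM (log2 1.49, SE 0.436, edgeR adjusted p = 0.0606). ND6, at 1050.2 ± 544 against 472 ± 26.6 CPM, was the 1 gene of the 7 whose shunt and control CPM values did not overlap (log2 1.15, SE 0.354, edgeR adjusted p = 0.0671), and 6.06% of all genes were higher without overlap. ND4, ND5 and ND1 stood at 1.27, 1.22 and 1.15 (edgeR adjusted p = 0.0673, 0.0834 and 0.0893).

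Shunt 1 and shunt 2 were the high shunt libraries for all 7 genes. Taken as a percent of all counts, 12 of the 14 values of shunt 3 and shunt 4 fell within the control range, the exceptions being ND4 in shunt 3 and ND4L in shunt 4. On that scale 0 of the 7 genes separated shunt from control libraries, against 0.429% of all genes that were higher in all shunt libraries. With shunt 1 and shunt 2 left out the log2 changes were 0.07 for ND4L to 0.31 for ND4 (edgeR adjusted p = 0.617 to 0.945), and 0.466% of all genes were called. Without shunt 4 all 7 were called, at log2 changes of 1.28 to 2.08, and without shunt 3 edgeR called 6, at 1.17 to 2.02 over the 7. The share of all genes called also went up, to 16.3% without shunt 4 and 13.4% without shunt 3. Shunt 3 and shunt 4 are the shunt libraries of lower mitochondrial share, and leaving out any other single library led to 0 calls. Of the 6 other protein genes of mitochondrial DNA, 1 was called in this comparison, CYTB of complex III (log2 1.34, edgeR adjusted p = 0.0496), and it was not called without shunt 1 and shunt 2 (0.70, edgeR adjusted p = 0.299). The difference between CYTB and the 7 genes was not tested.

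Against the fetal ventricle all 7 genes were higher in the shunt ventricle, and all passed the test. ND3 rose from 4040.1 ± 1551 to 31996 ± 27566 CPM (SD, n = 4; log2 2.99, SE 0.530, edgeR adjusted p = 0.0032). ND2 rose from 18919 ± 7475 to 113134 ± 78685 CPM (log2 2.58, SE 0.453, edgeR adjusted p = 0.00308) and ND4 from 24826 ± 8553 to 114911 ± 65268 CPM (log2 2.21, SE 0.400, edgeR adjusted p = 0.00346). The rises of ND5, ND4L and ND1 on the log2 scale were 2.08, 1.97 and 1.84 (edgeR adjusted p = 0.0063, 0.00754 and 0.00931). ND6 had the smallest rise, from 335 ± 149 to 1050.2 ± 544 CPM (log2 1.65, SE 0.358, edgeR adjusted p = 0.00856), and was the 1 gene whose shunt and fetal CPM values overlapped.

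The 7 calls compare with 15.7% of all genes called in this comparison, 9.16% of all genes in the upward direction. At an unadjusted p under 0.05 the share of all genes was 32.8%. The median log2 change was 2.08 for the 7, 1.88 for the 6 other protein genes of mitochondrial DNA and -0.01 for all genes. In 6 of the 7 genes every shunt library was above every fetal one, as in 9.12% of all genes. On the percent of all counts this held for 3 of the 7, ND2, ND3 and ND4, and for 0.658% of all genes. Without shunt 1 and shunt 2, ND3, ND2 and ND4 were still called, at 1.46, 1.41 and 1.26 (edgeR adjusted p = 0.00772, 0.0094 and 0.0151), and ND1, ND4L, ND5 and ND6 were not, at 0.91, 1.03, 1.14 and 0.80 (edgeR adjusted p = 0.0905, 0.0914, 0.062 and 0.0923). Of all genes 9.58% were called in that fit. With library totals as the only scaling 6 of the 7 were called and ND6 was not, at 0.51 (edgeR adjusted p = 0.0789). That scaling called 60.7% of all genes, nearly all as lower, and 1.05% as higher. Over the 20 alternatives the adjusted p of ND6 ran from 9.02e-05 to 0.0923.

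The sizes of all these changes depend on the scaling. With library totals the median of all genes moved to -0.41 between control and fetal libraries, -0.59 between shunt and control libraries and -1.02 between shunt and fetal libraries, and the median of the 7 genes to 0.58, 0.39 and 0.92. Relative to the median of all genes the 7 were thus 0.99, 0.99 and 1.95 higher on the log2 scale, against 0.95, 1.21 and 2.09 with TMM. All 7 log2 changes were positive in all 3 comparisons under both scalings. The comparisons share libraries, so their values for a gene are not independent of each other.

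**Figure D3:**
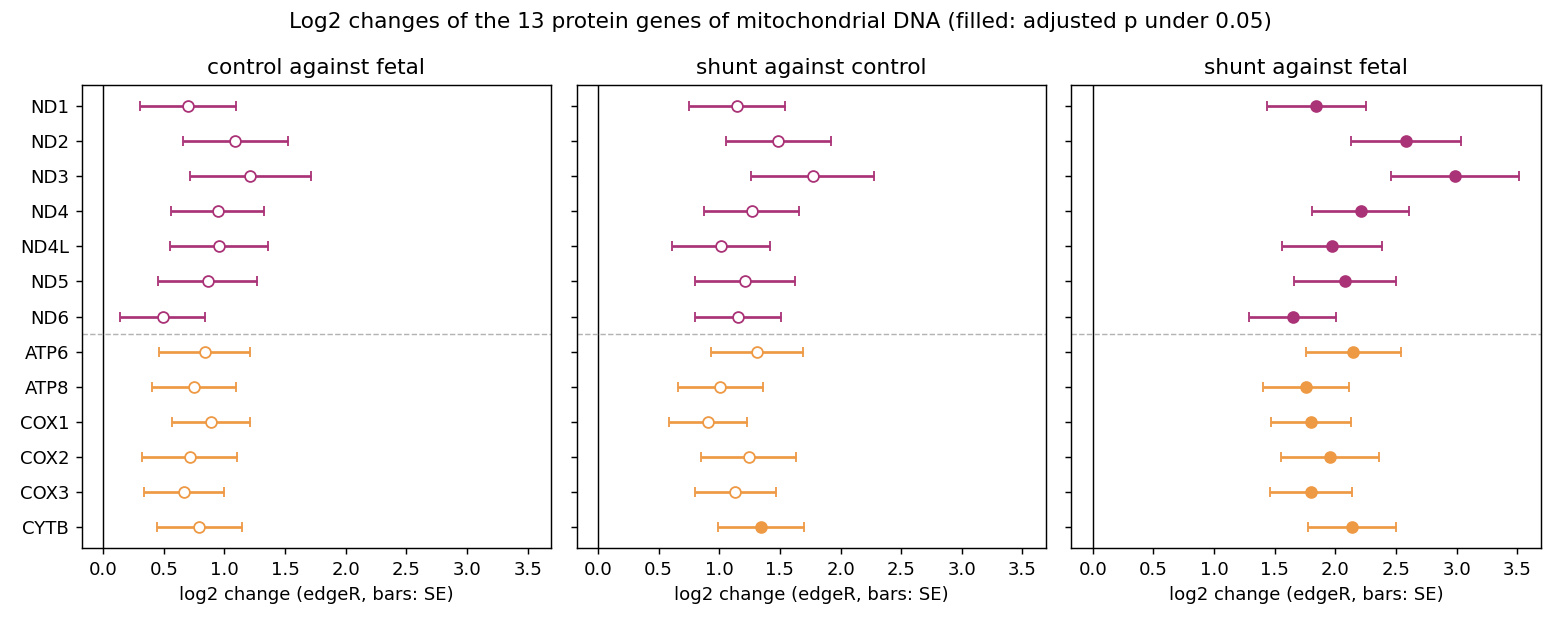
Log2 changes of the 13 protein genes of mitochondrial DNA: each panel is 1 comparison, the x axis is the log2 change from edgeR with TMM scaling, bars are its standard error, and filled points have an adjusted p under 0.05. The 7 complex I genes, above the dashed line, are all filled for shunt against fetal, where ND3 is farthest to the right at 2.99, and all open in the 2 other comparisons.

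The 7 genes did not keep fixed proportions. Shares of the counts of all 13 protein genes of mitochondrial DNA do not change with the counts of nuclear genes or with the scaling. ND3 took 1.57, 1.75, 1.72 and 1.59% of these counts in fetal 1 to fetal 4, 2.21, 1.95, 2.22 and 2.23% in control 1 to control 4 and 2.78, 4.43, 1.90 and 2.01% in shunt 1 to shunt 4. All later libraries were above all fetal ones, and shunt 2 stood apart at more than any other library. ND2 took 7.11, 8.37, 8.17 and 7.38% in the fetal, 10.1, 8.40, 9.32 and 9.23% in the control and 10.6, 13.6, 8.26 and 9.44% in the shunt libraries. The lowest control lay just above the highest fetal library, while shunt 3 fell among the fetal values.

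The ND3 share averaged 1.66% ± 0.0933 in fetal, 2.15% ± 0.131 in control and 2.78% ± 1.17 in the shunt libraries (SD, n = 4). In two-sided exact permutation tests control and shunt libraries each differed from fetal ones at p = 0.0286, which is the lowest value possible with 4 libraries in each group. For shunt against control the exact permutation p was 0.4. The ND2 share averaged 7.75% ± 0.606, 9.27% ± 0.715 and 10.5% ± 2.30, with exact permutation p = 0.0286 between control and fetal, 0.0571 between shunt and fetal and 0.4 between shunt and control libraries. Adjusted by Benjamini-Hochberg over 39 tests, 13 genes in 3 comparisons, no share passed, and the smallest adjusted exact permutation p was 0.223. To pass, most of the 39 tests would have had to reach 0.0286 at once, so this outcome says little about any single share.

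The order of means was reversed for ND1, with 5.79, 5.99, 6.72 and 6.31% of the 13-gene counts in fetal, 6.43, 4.78, 6.17 and 5.36% in control and 5.53, 5.75, 4.65 and 5.54% in the shunt libraries. Its mean was 6.20% ± 0.406 in fetal, 5.68% ± 0.759 in control and 5.37% ± 0.491 in the shunt libraries, and the shunt values lay below all fetal ones by a small margin (exact permutation p = 0.0286 before adjustment, n = 4). ND6 was at 0.136, 0.137, 0.153 and 0.119% in fetal, 0.124, 0.107, 0.0936 and 0.113% in control and 0.126, 0.0883, 0.0928 and 0.115% in the shunt libraries. Fetal 4 overlapped the later groups. The exact permutation p was 0.0571 before adjustment both for control and for shunt against fetal libraries (n = 4).

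ND4 had the steadiest share of the 7, with 10.1 to 11.9% over the 12 libraries, a highest value 1.18 times the lowest. For ND3 that factor was 2.82, for ND2 1.92 and for the others 1.45 to 1.73. For the 6 genes outside complex I it was 1.32 to 1.56. ND4L, at 0.412% ± 0.0878, 0.465% ± 0.0599 and 0.393% ± 0.0599, and ND5, at 3.06% ± 0.534, 3.26% ± 0.512 and 3.17% ± 0.488 in fetal, control and shunt libraries, overlapped between all groups. Without TMM, a fit of edgeR to the whole table with the 13-gene total as library size called 0 members between control and fetal libraries, 0 between shunt and control, and 1, ND3, between shunt and fetal (log2 0.74, edgeR adjusted p = 0.0486). Of all genes this fit called 14.0%, 0.0689% and 86.6% in the same order, the last nearly all as lower, with 0.337% as higher. Leaving out shunt 1 and shunt 2, which was added after the data had been seen, ended the ND3 call (log2 0.24, edgeR adjusted p = 0.407), where 67.2% of all genes were called.

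The shares whose groups did not overlap were those of ND2 and ND3 between control and fetal libraries and of ND1 and ND3 between shunt and fetal libraries, in each case 15.4% of the 13 genes and none of the 6 genes outside complex I. For shunt against control there were 0 among the 13. When shunt 1 and shunt 2 were left out, the difference of the mean ND3 share from control turned from 0.628 to -0.199 percentage points, that of ND2 from 1.22 to -0.417 and that of ND4 from 0.127 to -0.640. Against fetal libraries the ND3 and ND2 differences stayed positive without them, at 0.294 and 1.10 percentage points, and the ND1 difference stayed negative, at -1.11. On the same basis the differences from fetal were 0.0555 for ND4, -0.0490 for ND4L, -0.105 for ND5 and -0.0325 for ND6, and those from control -0.587 for ND1, -0.101 for ND4L, -0.306 for ND5 and -0.00582 for ND6. The 7 genes together took 28.4, 29.3, 30.7 and 29.6% of the 13-gene counts in fetal, 34.7, 29.7, 32.0 and 31.2% in control and 35.3, 38.9, 28.8 and 30.5% in the shunt libraries. Shunt 2 was the highest, and shunt 3 and shunt 4 lay within the fetal range.

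**Figure D4:**
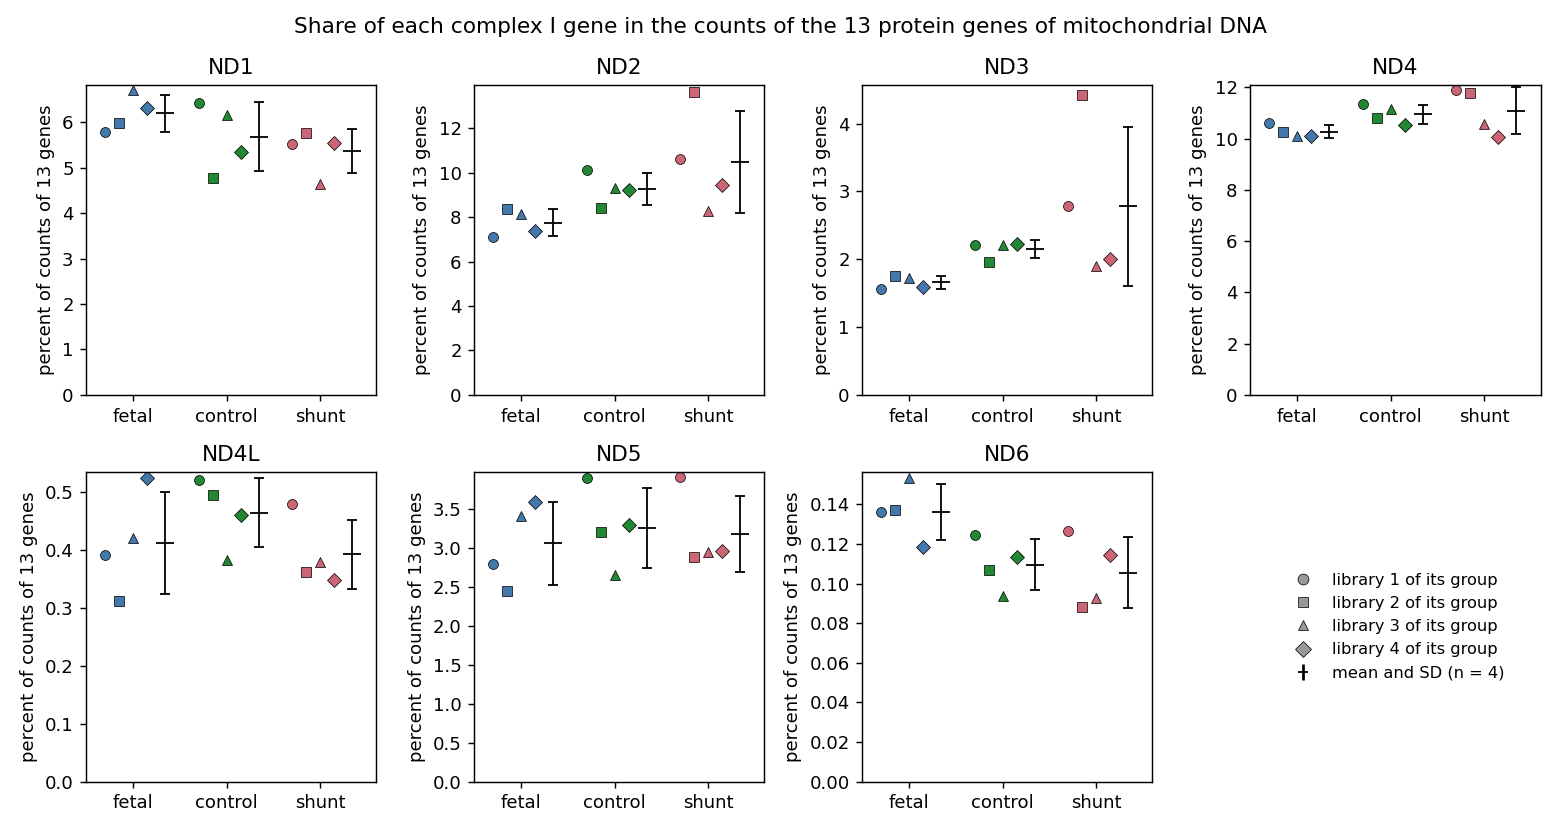
Share of each complex I gene in the counts of the 13 protein genes of mitochondrial DNA: each panel is 1 gene, the y axis is a percent on a linear scale from 0, each point is 1 library, and the black mark is the mean with its SD (n = 4). ND3 reaches 4.43% in shunt 2, and the ND4 points stay between 10.1% and 11.9%.

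Count ratios within a library give the same comparison for pairs of genes. ND1 and ND2 follow each other on the mitochondrial genome, with only transfer RNA genes between them. The log2 ratio of ND2 to ND1 counts was 0.30, 0.48, 0.28 and 0.22 in fetal 1 to fetal 4, 0.66, 0.81, 0.60 and 0.78 in control 1 to control 4 and 0.94, 1.24, 0.83 and 0.77 in shunt 1 to shunt 4. Fetal libraries were below all others, and control and shunt libraries overlapped. The mean was 0.32 ± 0.111 in fetal, 0.71 ± 0.104 in control and 0.95 ± 0.211 in the shunt libraries (SD, n = 4). The exact permutation p was 0.0286 for control and for shunt against fetal and 0.114 for shunt against control. Adjusted over 15 tests, 5 ratios in 3 comparisons, these exact permutation p were 0.107, 0.107 and 0.214. A pass would need most of the 15 tests at 0.0286 at once, so the adjusted values say little about any single ratio. Leaving out shunt 1 and shunt 2 took the shunt difference from 0.62 to 0.48 against fetal and from 0.23 to 0.09 against control libraries.

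The log2 ratio of ND3 to ND4 was -2.76, -2.55, -2.55 and -2.67 in fetal, -2.36, -2.46, -2.33 and -2.24 in control and -2.10, -1.41, -2.48 and -2.32 in the shunt libraries. All later libraries again lay above all fetal ones, shunt 3 by a small margin, and shunt 2 stood far above the others. Control against fetal and shunt against fetal differed by 0.28 and 0.55 (exact permutation p = 0.0286 each, 0.107 adjusted, n = 4). Shunt against control differed by 0.27, and by -0.05 without shunt 1 and shunt 2, where the difference from fetal was 0.23.

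ND5 and ND6 are read from opposite strands and overlap at their ends. The log2 ratio of ND6 to ND5 was -4.36, -4.16, -4.47 and -4.92 in fetal, -4.97, -4.90, -4.82 and -4.86 in control and -4.95, -5.03, -4.99 and -4.69 in the shunt libraries. Except for fetal 4, the fetal libraries had more ND6 per ND5 than any other library. The exact permutation p was 0.114 for control and 0.0571 for shunt libraries against fetal ones (0.214 and 0.171 adjusted, n = 4). Between shunt and control libraries the mean ratio differed by -0.02, and by 0.05 without shunt 1 and shunt 2, where shunt and fetal libraries differed by -0.36.

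ND4L and ND4 are known to share a messenger RNA, and the log2 ratio of their counts was -4.76, -5.03, -4.58 and -4.26 in fetal, -4.45, -4.45, -4.86 and -4.51 in control and -4.63, -5.02, -4.80 and -4.85 in the shunt libraries. All groups overlapped, and the lowest and highest values were both in the fetal group. The ratio of ND5 to ND4 ran from -2.07 to -1.49 over the 12 libraries, with group means of -1.76, -1.76 and -1.81 in fetal, control and shunt libraries. None of the 6 tests on these ratios had an adjusted exact permutation p under 0.214.

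**Figure D5:**
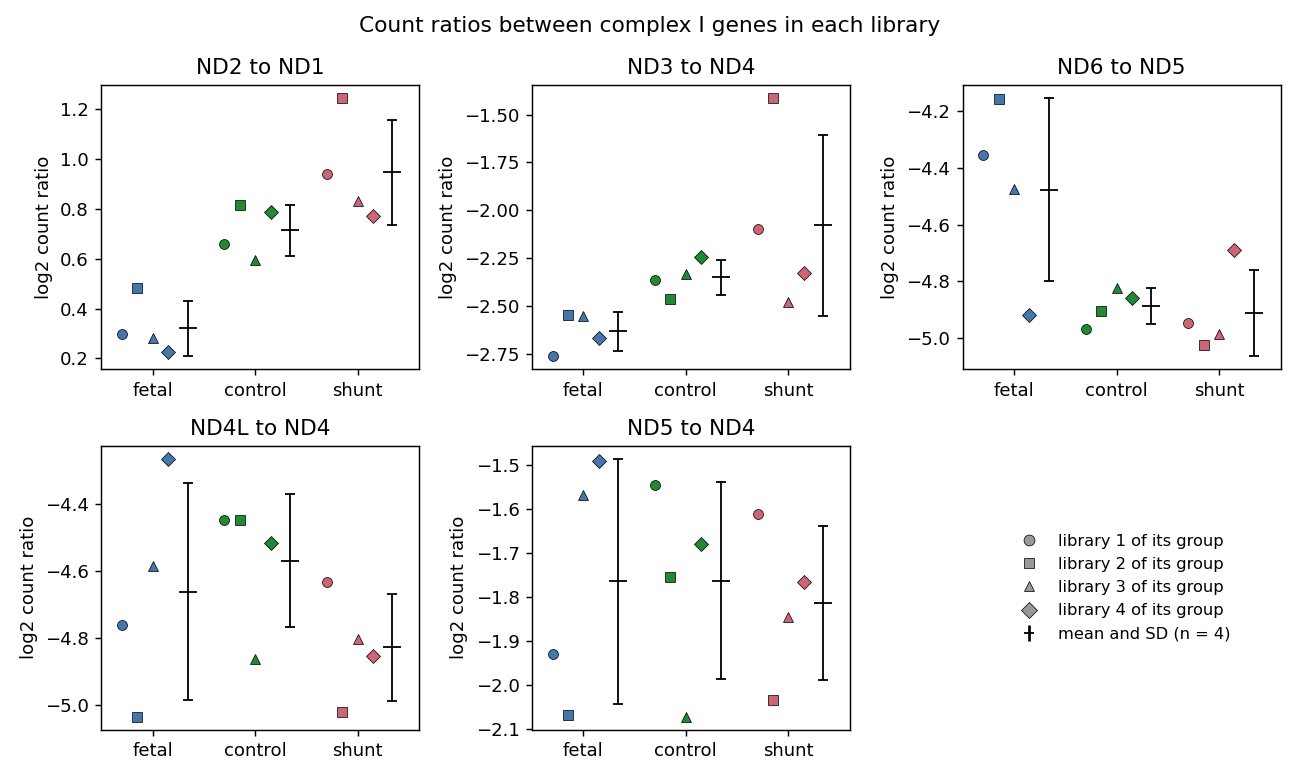
Count ratios between complex I genes: each panel is 1 pair of genes, the y axis is the log2 ratio of their counts in a library and does not start at 0, each point is 1 library, and the black mark is the mean with its SD (n = 4). For ND2 to ND1 the highest fetal value, 0.48, is below the lowest control value, 0.60.

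Likeness between the 7 genes was measured as the root mean square difference of their log2 CPM over the 12 libraries, each gene centred on its own mean. The closest of the 21 pairs was ND4L with ND5, at 0.115, then ND2 with ND3 at 0.171 and ND1 with ND4 at 0.182. The farthest was ND3 with ND6, at 0.561. ND4L was farther from ND4, with which it overlaps on the genome, than from ND5, at 0.232, and ND4 was nearest to ATP6, a subunit of ATP synthase, at 0.116. The summed level of the 7 genes itself had a standard deviation of 1.04 on this log2 scale.

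Set against the summed level of the 7, the members themselves were at 0.0806 for ND4 to 0.305 for ND6. The 6 other protein genes of mitochondrial DNA were at 0.158 for ATP6 to 0.288 for ATP8. These 13 genes were left out of the search for further genes like the 7. Among the 466 other tested genes with a symbol, the 5 most like that summed level were PSMB8, B2M, PPARG (a nuclear receptor of fat metabolism), PSMA6 (a proteasome subunit) and NFKBIA (an NF-kappa-B inhibitor), at differences of 0.404, 0.482, 0.541, 0.556 and 0.569. The median over the 466 was 1.18. PSMB8, an immunoproteasome subunit, averaged 18.2 ± 2.99 CPM in fetal, 33.3 ± 6.90 CPM in control and 72.2 ± 39.1 CPM in the shunt libraries (SD, n = 4). B2M, which pairs with class I histocompatibility chains, averaged 90.7 ± 6.92 CPM in fetal, 233 ± 38.5 CPM in control and 329 ± 122 CPM in the shunt libraries. The 5 genes were picked for likeness to the 7 over these same libraries, so a shared order of group means is no separate result. TMM scaling with the same factors also enters all these values.

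Of 38 nuclear-encoded complex I subunits on the list, 3 carry a name in the deposited table, NDUFA12, NDUFB6 and NDUFB8, and all 3 were tested. For shunt against fetal, NDUFA12, a peripheral arm subunit, rose from 122 ± 32.4 to 239 ± 62.4 CPM (SD, n = 4; log2 0.97, edgeR adjusted p = 0.0121), and NDUFB6, a membrane arm subunit, rose from 225 ± 83.1 to 436 ± 117 CPM (log2 0.96, edgeR adjusted p = 0.0232). NDUFB8, also of the membrane arm, stood at 0.56 (edgeR adjusted p = 0.0762). Without shunt 1 and shunt 2 NDUFA12 was still called (0.89, edgeR adjusted p = 0.0175), while NDUFB6 and NDUFB8 were not (0.66, edgeR adjusted p = 0.114 and 0.61, edgeR adjusted p = 0.0559). None of the 3 passed for control against fetal, at 0.74, 0.79 and 0.45, or for shunt against control, at 0.23, 0.17 and 0.11. In that last comparison their median was 0.17, where that of the 7 mitochondrially encoded subunits was 1.22. Without shunt 1 and shunt 2, NDUFA12, NDUFB6 and NDUFB8 stood there at 0.14, -0.13 and 0.15, and the median of the 7 was 0.27. The difference between nuclear and mitochondrial subunits was not tested.

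Of 30 genes of mitochondrial transcription and RNA processing, SLIRP and PUS1 were named and tested. SLIRP, whose protein binds LRPPRC and stabilises mitochondrial messenger RNAs, averaged 73.7 ± 13.4, 94.4 ± 11.5 and 149 ± 47.5 CPM in fetal, control and shunt libraries, and rose for shunt against fetal (log2 1.02, edgeR adjusted p = 0.00827). It stood at 0.66 for shunt against control (edgeR adjusted p = 0.0782) and 0.36 for control against fetal. Without shunt 1 and shunt 2 its shunt against fetal change was 0.81, edgeR adjusted p = 0.0127. PUS1, a pseudouridine synthase of nuclear and mitochondrial RNAs, averaged 27.4 ± 7.11, 19.8 ± 2.75 and 50.5 ± 20.6 CPM and rose for shunt against fetal (log2 0.88, edgeR adjusted p = 0.039), and for shunt against control (log2 1.35, edgeR adjusted p = 0.0344), with -0.47 for control against fetal (edgeR adjusted p = 0.375). PUS1 was not called without shunt 1 and shunt 2 in either shunt comparison (0.24, edgeR adjusted p = 0.5 against fetal and 0.71, edgeR adjusted p = 0.124 against control). None of the 18 complex I assembly genes or the 13 genes of mitochondrial DNA copy and biogenesis on the lists matched a name in the table, so they were not analysed here.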

How the data were processed

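Per the labels' protocols, the RNeasy Plus Universal Mini kit gave RNA from right ventricle, the QIAseq Stranded mRNA kit turned it into libraries, and these were sequenced on a NextSeq instrument as paired reads. The authors deposited raw read counts per gene, 1 column per library, and these deposited counts were used as they stand. The aligner, counting tool, genome build and strand setting were not given in the sources used here. The table had 27054 genes, and gene names came from it alone. Libraries were grouped by title into fetal, control and shunt, 4 each. The members, lists and alternatives were chosen with earlier results of these data known.

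Counts were tested with edgeR 4.0.16 in R 4.3.3, with filterByExpr by group (13065 genes kept, all 7 members among them), TMM factors of 0.455 to 1.61, 1 robust quasi-likelihood model over the 3 groups, and Benjamini-Hochberg adjustment over all genes with a threshold of 0.05. CPM values use the TMM factors, and a prior count of 2 entered the log2 CPM used for likeness. Shares and ratios were tested with two-sided exact permutation tests in SciPy 1.17.1. The edgeR script was tested on simulated data. All 7 members were named in each comparison, list genes where the table names and the filter keeps them, and the 5 genes outside mitochondrial DNA most like the summed members.

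Alternatives were library totals, the size factors of DESeq2 1.42.0, TMM without mitochondrial genes, the DESeq2 Wald test, no filter, the compared groups alone, the replicate number as a block, and leaving out each library or shunt 1 with shunt 2. No pair of libraries held the same counts: the smallest chi-square between any pair of a group was 25.2 per gene, which does not show that libraries come from different animals. No gene lengths were used, and no sequences are shown.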

Additional observations from a re-analysis of the deposited data

Results flagged for a closer look

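In 4 of the 66 groups of 4 libraries that were examined, 1 library stood apart from the other three by Dixon's test for a single outlying value, and chance alone gives about 1 in 20. The ND3 level of control 3 was 11610.2 CPM, where the next control was at 8816 CPM. The ND3 share of the 13-gene mitochondrial counts in control 2 was 1.95%, where the nearest control was at 2.21%. The ND5 share in shunt 1 was 3.90%, where the next shunt library was at 2.96%. The log2 ratio of ND4L to ND4 in control 3 was -4.86, where the nearest control was at -4.51. Shunt 1 and shunt 2, which have the highest mitochondrial shares, were not singled out by this test in the levels of the 7 genes, since they lie apart as a pair.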

How the results depend on the processing

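The labels do not say whether replicate numbers pair the libraries, and weak correlations cannot show that they do not. Deviations of same-numbered libraries correlated at -0.190 to 0.154. In 5 of 24 checks, each of the 12 libraries in each comparison it enters, a library correlated best with its own number among 4. With the replicate block edgeR called 0, 0 and 7 of the 7 genes between control and fetal, shunt and control, and shunt and fetal libraries, as without it. Over all 13065 genes edgeR with the block called 513, 61 and 1444 in the same order. With the mitochondrial total as library size it called 1 member, ND3, for shunt against fetal, where 11318 of 13065 genes were called, and with the replicate block added 0 (ND3 edgeR adjusted p = 0.117), where 10863 were called.

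For control against fetal, 3 members were called with the compared groups alone and 3 without shunt 1 and shunt 2, against 0. For shunt against control, the DESeq2 Wald test called 6, and leaving out 1 library gave 0 to 7. For shunt against fetal, 3 were called without shunt 1 and shunt 2, against 7, and 7 with any 1 library left out. Calls over all genes for control against fetal were 675, with 1913 from the compared groups alone, 1248 by the Wald test, 1672 without shunt 1 and shunt 2, and 259 to 886 with 1 library left out (lowest without fetal 1). For shunt against control they were 522, with 4, 1981 and 64 under those alternatives and 6 to 2169 with 1 library left out. There, leaving out shunt 3 or shunt 4 gave 1784 or 2169, leaving out control 3 gave 543, and leaving out any other library gave 6 to 70. For shunt against fetal they were 2048, with 1073 from the compared groups alone, 7929 with library totals, 1314 without shunt 1 and shunt 2, and 957 to 2855 with 1 library left out (lowest without fetal 4). The cause of these changes was not tested.

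As a share of the 7 members alone, the ND4 difference turned to -0.43, -0.99 and -1.42 percentage points in the 3 comparisons, and that of ND5 to -0.15 between control and fetal and -0.76 between shunt and fetal libraries. On this basis ND1 and ND6 were lower and ND3 higher without overlap in control than in fetal libraries, while ND2 overlapped. Against fetal, shunt shares of ND1 and ND6 were lower and of ND2 and ND3 higher without overlap. Each of these had an exact permutation p = 0.0286, or 0.0857 adjusted. No such share separated shunt from control libraries. In the fit with the mitochondrial total as library size and without shunt 1 and shunt 2, added after seeing the data, the log2 shares turned to -0.0663 for ND2, -0.140 for ND3 and -0.0868 for ND4 between shunt and control, and to -0.0503 for ND5 between shunt and fetal libraries. Of 420 recomputed log2 changes of single members, which leave out the fits with the mitochondrial total as library size, all kept their sign, 390 also their side of the threshold, 25 gained a call and 5 lost it. In the fit with the mitochondrial total 5, 3 and 4 of the 7 were positive in the 3 comparisons. Shares and ratios with a library left out are values with no test, since 4 against 3 libraries cannot go below p = 0.0571 in an exact permutation test. A denominator with mitochondrial ribosomal and transfer RNA was not run, as no row carries such a name. The members had at least 6995 counts per library, and whether depth plays a part in their results was not tested.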
